A study of Mus musculus with 5 samples.

Results

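Dnase2b encodes the acid nuclease that degrades nuclear DNA when lens fibre cells lose their nuclei. It was examined with 7 further genes of nuclear breakdown: the nucleases Dnase2a, Dnase1l1 and Trex1, the regulators Hsf4 and Psip1, and the lamins Lmna and Lmnb1. The genes were chosen by symbol, and 7 of the 8 were measured among 12370 symbols. Dnase2a was not analysed here. All 7 passed the filter on low counts, which left 12035 genes.

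The 5 RNA-seq libraries were made from whole lenses of mice at embryonic day 14. For 3 control libraries the embryos had no Cre, and their N-myc alleles were flanked by loxP sites. The labels describe controls both with and without loxP-flanked c-myc, and the sources used here do not say which of them each library held. The 2 knockout libraries came from N-myc loxP/loxP embryos with 1 copy of Mlr10-Cre, a transgene with a modified alphaA-crystallin promoter that is active in lens epithelium and fibres. Every knockout and no control library carried Cre, so effects of the transgene and of the deletion cannot be told apart. Lysates of individual lenses were combined before the RNA was purified. The sources used here do not give the pool sizes.

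A fibre cell differentiates from the lens epithelium, fills with crystallins and then degrades its nucleus and other organelles, which clears the light path. DNASE2B is a lysosomal enzyme, and in mice without it fibre cells keep their DNA and cataract develops. HSF4, a heat shock transcription factor of the lens, is known to drive Dnase2b, and nuclear breakdown also requires the lamina beneath the nuclear envelope to come apart. In the mouse the first fibre nuclei are lost late in gestation, after the stage sampled here.

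Total counts ran from 13162384 to 13746416 per library. Mycn, the deleted gene, stood at 162.0, 148.4 and 140.3 CPM (counts scaled to a common library total, with totals adjusted by TMM) in the controls and at 57.3 and 81.9 CPM in the knockouts. The 10 lens markers were all measured. Their summed level was 85087 to 106306 CPM in the controls, against 79233 and 92643 CPM in the knockouts. Much of that sum was Cryaa, at 41907 to 51879 CPM in the controls and 44250 and 50158 CPM in the knockouts. Of these lens markers 4 fell, 0 rose and 6 did not pass, a share of 40% called against 16.5% over all genes. Of other cell types, 12 of 13 periocular mesenchyme markers were measured, with a summed level of 608.0 to 887.4 CPM in the controls, 2483 CPM in knockout replicate 1 and 774.5 CPM in knockout replicate 2. Of these mesenchyme markers 5 rose, 0 fell and 7 did not pass, a share of 41.7% called against 16.5% over all genes. The 9 measured retina markers of 12 summed to 179.3 to 294.7 CPM in the controls. They summed to 354.9 CPM in knockout replicate 1 and 491.0 CPM in knockout replicate 2. Of these retina markers 8 rose, a share of 88.9% called against 16.5% over all genes. The 10 measured macrophage markers of 13 summed to 28.8 to 52.1 CPM in the controls, against 58.8 and 58.7 CPM in the knockouts. The defining macrophage markers Ptprc, Aif1 and Adgre1 were not analysed here. The globin genes Hbb-bt, Hba-a1 and Hba-a2 were listed at 0 in every library, but other globin genes were detected. Hbb-y was at 54.0 to 82.9 CPM in the controls, against 49.9 and 51.1 CPM in the knockouts. Hba-x was at 17.7 to 26.3 CPM in the controls, against 21.3 and 16.1 CPM in the knockouts. Of 6 red blood cell markers tested, 1 fell (Ermap, 3.42-fold), 0 rose and 5 did not pass, a share of 16.7% against 16.5% over all genes. Among those 5, Slc4a1 was at 6.04 to 13.8 CPM in the controls, against 14.6 and 23.7 CPM in the knockouts. The part of these cell types in the differences reported here was not tested.

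The promoter of Dnase2b is shown because HSF4, its known activator, was measured in the same libraries. HSF proteins bind heat shock elements, inverted repeats of the letters GAA. The 250 bases before the RefSeq start of Dnase2b (GRCm38.p6, chr3:146615599-146615848, minus strand) are written 5′ to 3′ with the match to such a repeat in capitals.
Dnase2b: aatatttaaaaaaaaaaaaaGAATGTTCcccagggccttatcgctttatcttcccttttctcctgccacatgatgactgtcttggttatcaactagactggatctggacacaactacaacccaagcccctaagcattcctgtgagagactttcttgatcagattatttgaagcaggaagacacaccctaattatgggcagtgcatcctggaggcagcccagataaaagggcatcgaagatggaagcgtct
The match GAATGTTC begins at position -230, counted backwards from the base before the start. The letters searched were GAANNTTC and TTCNNGAA, each of which reads the same on both strands, and 12.8% of 32851 promoter windows of this length held at least 1 of them. CACGTG, the E-box core that MYC proteins bind with MAX, is also the same on both strands. It was found in 6.02% of all windows and was not among the letters of the Dnase2b window. RefSeq windows were at hand for 5 of the 8 genes (8 windows), and the windows of Dnase2a, Dnase1l1, Trex1 and Lmna held neither motif.

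Of the 7 genes, Dnase2b, Trex1 and Hsf4 fell, Lmna rose, and Psip1, Lmnb1 and Dnase1l1 did not pass the test (edgeR, Benjamini-Hochberg adjusted p under 0.05). Across all genes tested 16.5% were called, 8.51% lower and 7.98% higher. For 5 of the 7 genes the controls and knockouts did not overlap, with Dnase2b, Trex1, Hsf4 and Psip1 below and Lmna above all controls. Among all genes tested 52.5% had ranges that did not overlap, 27.0% lower and 25.5% higher, so separation of the ranges was common in these libraries. The 3 lower calls fell to 1, Dnase2b, when control replicate 2, control replicate 3 or knockout replicate 1 was left out. Without control replicate 2 edgeR called few genes of any kind, 17 lower and 21 higher, although 3157 genes had p under 0.05 before adjustment. With the 5 libraries together that number was 4311.

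**Figure D1:**
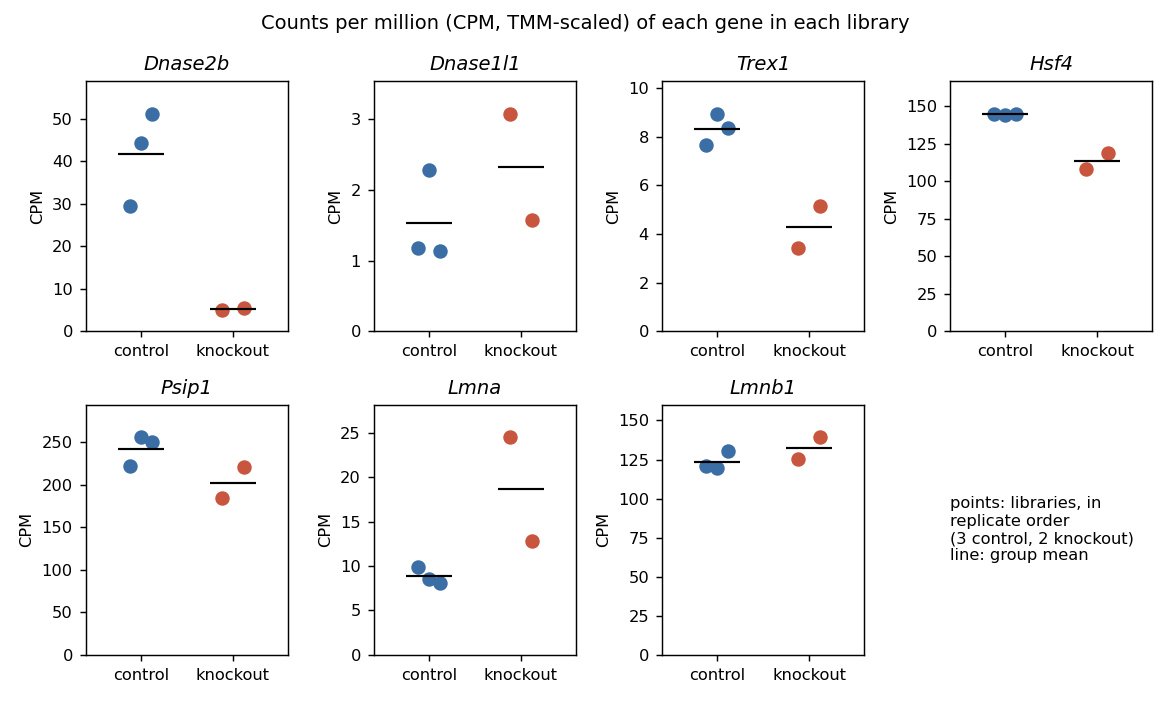
CPM (vertical axis, from 0) of the 7 measured genes in the 3 control libraries (blue) and 2 knockout libraries (red), with group means as lines. Both knockout points of Dnase2b lie near 5 CPM, and the pair of Lmna points stands apart, at 24.5 and 12.8 CPM.

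Dnase2b had the greatest difference of the 7 genes. The controls had 377, 585 and 675 raw counts and the knockouts 70 and 76, or 29.6, 44.4 and 51.2 CPM against 5.01 and 5.45 CPM. The lowest control was thus several times as high as either knockout library, and both knockout libraries were at nearly the same level. Dnase2b (chromosome 3, 146580985 to 146615596, GRCm38) fell by 2.99 on the log2 scale (SE 0.25, 95% interval -3.58 to -2.41, edgeR adjusted p = 0.0024), which is 7.97-fold. It ranked 5 by fold among the 1024 genes that fell. The call held in all 12 alternatives, with log2 fold changes from -3.18 to -2.80 and adjusted p up to 0.026, the value without control replicate 2. In bulk lens RNA, fewer cells that express a gene and less of its RNA per cell cannot be told apart. The Uox gene lies on the opposite strand within the same interval in GENCODE vM21, but the exons of the genes share 0 bases.

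The fall of Dnase2b was set beside that of other genes of differentiated fibres. Of 26 tested fibre genes, 11 fell, 0 rose and 15 did not pass, a share of 42.3% called against 16.5% over all genes, with a median log2 fold change of -0.49 against 0.0021 over all genes tested. Bfsp1, the beaded filament protein filensin, fell from 1301, 1839 and 2046 CPM to 469.0 and 658.0 CPM (edgeR adjusted p = 0.0097). The falls of Lenep, a small lens protein, and of the actin-capping Tmod1 were 2.06-fold and 1.97-fold. With all libraries none of the 26 had a fold change as low as Dnase2b. The nearest was Birc7, an inhibitor of apoptosis, with a log2 fold change of -2.62, but its 95% interval of -3.70 to -1.53 covered the Dnase2b value. Without knockout replicate 2 the order turned, with -3.67 for Birc7 and -3.06 for Dnase2b. Without control replicate 2 the number of fibre genes that fell was 0, and without control replicate 3 or knockout replicate 1 it was 2.

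Relative to the mean log2 (CPM + 1) of these 26 genes, Dnase2b stood at -3.80, -3.62 and -3.36 in the controls and at -5.59 and -5.88 in the knockouts. The difference of -2.15 was larger than the spread within the groups (SD 0.22, n = 3 and 0.21, n = 2). A two-sided exact permutation test over libraries gave p = 0.1, the smallest p that 10 arrangements of 3 and 2 libraries allow. The fibre genes themselves differed by -0.60 between the groups. They were lower in knockout replicate 1 (8.18) than in knockout replicate 2 (8.57), whereas Dnase2b was alike in both (2.59 and 2.69).

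**Figure D2:**
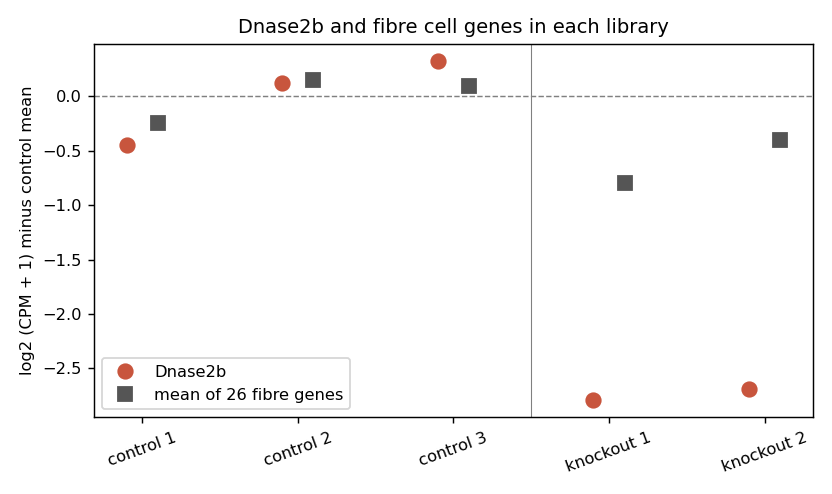
Difference from the control mean in log2 (CPM + 1) for Dnase2b (red circles) and the mean of 26 fibre genes (grey squares) in each of the 5 libraries on the horizontal axis. The symbols lie close together in the controls and far apart in both knockout libraries, where Dnase2b is lower.

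The genes with the profile most like Dnase2b over the 5 libraries were found by the root mean square difference in log2 (CPM + 1), centred on the control mean, among 10454 genes with a mean of at least 5 CPM. The closest was Nlrc5 (0.24), which turns on genes of MHC class I, and it was followed by Tmprss11e, a transmembrane serine protease (0.31), and Birc7 (0.49). Stx11, Lrrtm2, Scn11a, Rnf180 and Ermap completed the closest 8, at 0.55 to 0.68. Ermap was also on the list of red blood cell markers. Nlrc5 went from 31.6, 37.2 and 43.5 CPM to 3.22 and 3.87 CPM, a profile with both knockout libraries nearly level, as for Dnase2b. With a pseudocount of 0.5 in place of 1, 7 of these 8 were again among the closest 8.

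Of the other nucleases, Trex1, the main exonuclease of the cytosol, which degrades stray DNA, had 98, 118 and 110 counts in the controls, against 48 and 72 in the knockouts. Its levels were 7.68, 8.96 and 8.35 CPM against 3.43 and 5.17 CPM, so both knockout libraries lay below the controls. Trex1 (chromosome 9, 109057933 to 109059734) fell 1.94-fold (log2 fold change -0.95, SE 0.23, edgeR adjusted p = 0.034). The call was lost without control replicate 2 (adjusted p = 0.12), control replicate 3 (0.098) or knockout replicate 1 (0.17). In GENCODE vM21 100% of the exon bases of Trex1 are also exon bases of Atrip, a checkpoint gene on the same strand. Reads from these genes can be split or lost between them, so the Trex1 counts are uncertain. Atrip had 299, 289 and 309 counts in the controls, against 317 and 277 in the knockouts, and did not pass the test (log2 fold change -0.11, 95% interval -0.38 to 0.17).

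Dnase1l1, a membrane-bound relative of the pancreatic nuclease DNASE1, was scarcely detected, with 15, 30 and 15 counts in the controls, against 43 and 22 in the knockouts. Control replicate 2 (2.28 CPM) lay above knockout replicate 2 (1.58 CPM) and below knockout replicate 1 (3.08 CPM), so the groups overlapped. Dnase1l1 (chromosome X, 74273217 to 74282337) had a log2 fold change of 0.60 with a 95% interval of -0.45 to 1.65, and a difference was not detectable at this depth (edgeR adjusted p = 0.37).

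Other nucleases were counted for comparison with Dnase2b. Of 25 other nuclease genes tested, most of which act on DNA, 3 fell, 0 rose and 22 did not pass, beside 16.5% called over all genes. Their median log2 fold change was 0.14. Apex1, the main abasic site endonuclease of base excision repair, fell 1.46-fold. Aen, a nuclease induced by p53, fell 1.40-fold from 32.1, 35.2 and 36.1 CPM to 23.7 and 25.5 CPM, and Xrn2, a nuclear exonuclease that acts on RNA, fell 1.27-fold. Dffb, the caspase-activated DNase of apoptosis, was low in every library, at 1.97 to 4.23 CPM in the controls, against 2.93 and 3.95 CPM in the knockouts. Without control replicate 2, control replicate 3 or knockout replicate 1, 0 of these nucleases fell.

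Hsf4 was the most abundant of the 7 genes per length of transcript. It had 1850, 1903 and 1906 counts in the controls, against 1515 and 1659 in the knockouts. In CPM the controls were nearly identical, at 145.0, 144.4 and 144.7, and the knockouts lay lower, at 108.4 and 119.0. Hsf4 (chromosome 8, 105269801 to 105275845) fell 1.27-fold (log2 fold change -0.35, SE 0.079, edgeR adjusted p = 0.029), a much smaller difference than that of Dnase2b. The 95% intervals of the log2 fold changes, -0.53 to -0.17 for Hsf4 and -3.58 to -2.41 for Dnase2b, did not overlap. Hsf4 had a log2 fold change of -0.62 once loess trends on transcript length and GC content were taken out of each library. The call was lost without control replicate 2 (adjusted p = 0.10), control replicate 3 (0.090) or knockout replicate 1 (0.18). The closest profiles to Hsf4 were those of Coa5, Crcp and Adam17, with root mean square differences of 0.014 to 0.016.

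Hsf1 and Hsf2, the widely expressed heat shock factors, did not pass the test. Hsf1 had a log2 fold change of -0.074 and Hsf2 of -0.27, and both overlapped between groups. Per kilobase of exon, Hsf4 made up 90.4% to 90.8% of the summed level of these 3 factors in the controls, against 89.0% and 89.8% in the knockouts.

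Of 22 tested genes tied to HSF4 or to the heat shock response, 10 fell, 0 rose and 12 did not pass, a share of 45.5% against 16.5% over all genes, with a median log2 fold change of -0.57. Of these 22 genes, 5 were also on the fibre list, and 3 of the 10 that fell came from it. The fibre list did not hold the crystallin genes Crygb, Crygf and Cryab, which also fell. The remaining falls were in the heat shock chaperone genes Hsp90aa1, Hsp90ab1, Dnajb1 and Hsph1. Besides Bfsp1, Crygf, a gamma-crystallin with near-identical paralogs and so of uncertain count, fell from 1403, 2380 and 2061 CPM to 488.5 and 783.1 CPM. The chaperone Hsp90aa1 fell 1.50-fold. Hspb1, a small heat shock protein, was near the detection limit, at 0.47 to 0.83 CPM in the controls, against 1.65 and 0.50 CPM in the knockouts. The number that fell was 0 without control replicate 2, 1 without control replicate 3 and 2 without knockout replicate 1.

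Psip1 encodes LEDGF, a chromatin-bound coactivator first isolated from lens epithelium. Its counts were 2825, 3368 and 3289 in the controls, against 2571 and 3080 in the knockouts. Knockout replicate 2 (220.9 CPM) lay just under control replicate 1 (221.4 CPM), with the other controls at 255.6 and 249.6 CPM and knockout replicate 1 at 184.0 CPM. Psip1 (chromosome 4, 83455680 to 83486459) had a log2 fold change of -0.26 (95% interval -0.51 to -0.0098), short of the threshold (edgeR adjusted p = 0.13), and of -0.054 after removal of the trends on length and GC. Its exons share 9.50% of their bases with Snapc3, a gene on the opposite strand. Of 11 partner and HDGF-family genes tested, 18.2% were called, close to the 16.5% over all genes. Among them 2 fell and 0 rose: Hdgf, a growth factor with the same chromatin-reading domain (1.39-fold), and Cdca7l, which binds LEDGF (1.41-fold). Their median log2 fold change was 0.0018. The number that fell was 0 without control replicate 2, control replicate 3 or knockout replicate 1, and with library totals only 1 fell and 3 rose.

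The lamins differed from each other. Lmna encodes the A-type lamins A and C, which are scarce in early embryonic cells and abundant in stiff tissues. It had 126, 112 and 107 counts in the controls, against 342 and 178 in the knockouts, or 9.88, 8.50 and 8.12 CPM against 24.5 and 12.8 CPM. Both knockout libraries lay above the controls, with knockout replicate 1 far higher than knockout replicate 2. Lmna (chromosome 3, 88480147 to 88509956) rose 2.11-fold (log2 fold change 1.08, SE 0.26, edgeR adjusted p = 0.034), but with 0.53 (adjusted p = 0.19) when knockout replicate 1 was left out. The call was also lost with limma-voom (adjusted p = 0.052), after removal of the length and GC trends (0.056) and without control replicate 1 (0.055), control replicate 2 (0.12) or control replicate 3 (0.10).

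The summed level of the mesenchyme markers, like that of Lmna, was highest in knockout replicate 1. The sum was 2483 CPM there, while the 774.5 CPM of knockout replicate 2 lay within the range of the controls. In the controls the sums were 608.0, 609.1 and 887.4 CPM, where Lmna was at 9.88, 8.50 and 8.12 CPM. The 7 measured skeletal muscle markers of 8 summed to 353.8 CPM in knockout replicate 1 and to 12.1 to 52.3 CPM in the other libraries. In knockout replicate 2 Lmna was at 12.8 CPM against a highest control of 9.88 CPM, and the retina markers had their highest sum, 491.0 CPM. The part of mesenchyme, muscle or retina cells in the rise of Lmna was not tested.

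**Figure D3:**
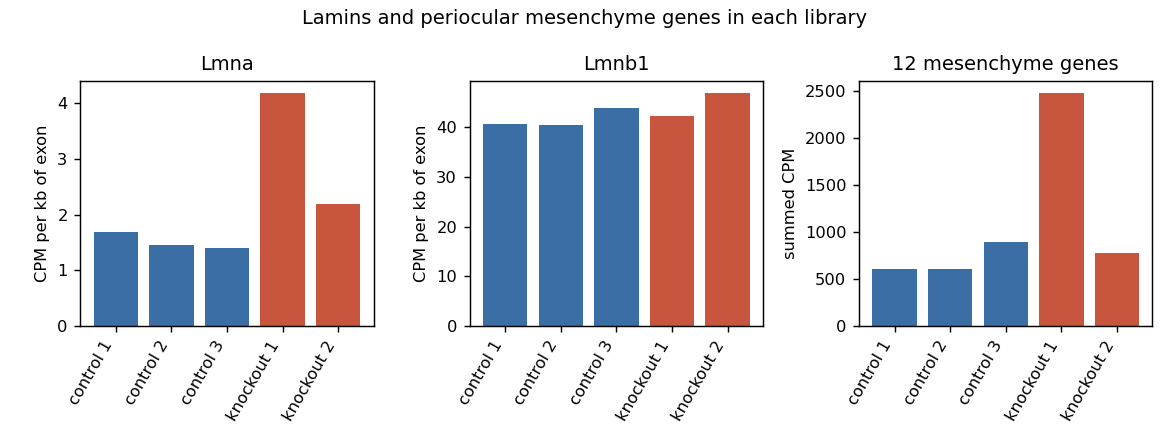
Levels of Lmna and Lmnb1 (CPM per kilobase of exon) and summed CPM of 12 periocular mesenchyme markers in each library, controls in blue and knockouts in red, with bars from 0. Knockout replicate 1 has the tallest bar for both Lmna (4.19) and the mesenchyme sum, while the Lmnb1 bars are of similar height.

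Lmnb1 encodes lamin B1, a farnesylated lamin found in most cell types. Its counts were 1538, 1577 and 1718 in the controls, against 1754 and 1941 in the knockouts, or 120.6, 119.7 and 130.4 CPM against 125.5 and 139.2 CPM, and the groups overlapped. Its log2 fold change of 0.10 had a 95% interval of -0.097 to 0.30 (edgeR adjusted p = 0.43), which leaves out a change of the size seen for Lmna. Its sign turned to -0.030 with the length and GC trends removed. Lmnb2 had a log2 fold change of 0.30 that did not pass the test (adjusted p = 0.098). Per kilobase of exon, Lmna made up 2.71% to 3.43% of the summed level of the 3 lamin genes in the controls, 7.70% in knockout replicate 1 and 3.81% in knockout replicate 2.

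Of 27 other genes of the nuclear lamina and envelope, 3 rose, 1 fell and 23 did not pass, a share of 14.8% called against 16.5% over all genes. Syne2, a nesprin that ties the nucleus to actin, rose 1.63-fold from 150.4, 147.8 and 141.3 CPM to 260.9 and 217.7 CPM. Lemd2, an inner nuclear membrane protein, rose 1.31-fold. Zmpste24, the protease that matures prelamin A, fell 1.34-fold from 40.9, 44.3 and 38.3 CPM to 29.7 and 31.6 CPM. Lbr, the lamin B receptor, did not pass (log2 fold change 0.13). None of the 27 (0) was called after removal of the length and GC trends. The number was also 0 without control replicate 2, and 1 rose and 0 fell without control replicate 3 or knockout replicate 1.

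Phosphorylation by CDK1 and cleavage by caspases are the known routes of lamina disassembly, in mitosis and apoptosis. Of 26 genes of these routes, 1 fell, 1 rose and 24 did not pass (7.69% called, against 16.5% over all genes). Pkmyt1, a kinase that holds CDK1 inactive, rose 1.59-fold, and its call was lost after removal of the length and GC trends and without control replicate 2, control replicate 3 or knockout replicate 1. Cdk1 itself was at 36.2, 37.0 and 36.6 CPM in the controls, against 39.4 and 42.1 CPM in the knockouts (log2 fold change 0.16, edgeR adjusted p = 0.25). Cdkn1b, the inhibitor p27 that accumulates in fibre cells, did not pass, with a log2 fold change of -0.21.

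Of 22 further genes tied to the removal of organelles in the lens, 5 fell, 2 rose and 15 did not pass (31.8% called, against 16.5% over all genes). Caprin2, an RNA-binding protein of fibre cells, fell 2.25-fold, Tdrd7, a component of lens RNA granules, 1.42-fold, and Bnip3l, a mitophagy receptor, 1.39-fold. Without control replicate 2 the numbers were 0 and 0, and without control replicate 3 or knockout replicate 1 they were 1 and 0. DNASE2B acts in the lysosome. Of 37 lysosomal genes 1 fell, 1 rose and 35 did not pass (5.41% called, against 16.5% over all genes), with a median log2 fold change of 0.034. Psap, the precursor of the saposins, rose 1.29-fold, and Atp6v1a, a subunit of the proton pump, fell 1.22-fold. Neither passed without control replicate 2, control replicate 3 or knockout replicate 1. Atp6v1a passed in 4 of 12 alternatives, and with library totals only 0 of the 37 fell and 6 rose.

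Loss of TREX1 is known to raise interferon-stimulated genes through cytosolic DNA sensing. A list of 26 genes held sensors and regulators of this response as well as genes that it induces. Of these 11 were tested, mostly sensors and regulators, and many of the induced genes were not analysed here. Among the 11, 1 fell and 0 rose (9.09% called, against 16.5% over all genes). Their median log2 fold change was -0.00036, and 10 of the 11 did not pass. The number that fell was 0 without control replicate 2, control replicate 3 or knockout replicate 1, and without knockout replicate 2 the number that rose was 2.

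**Figure D4:**
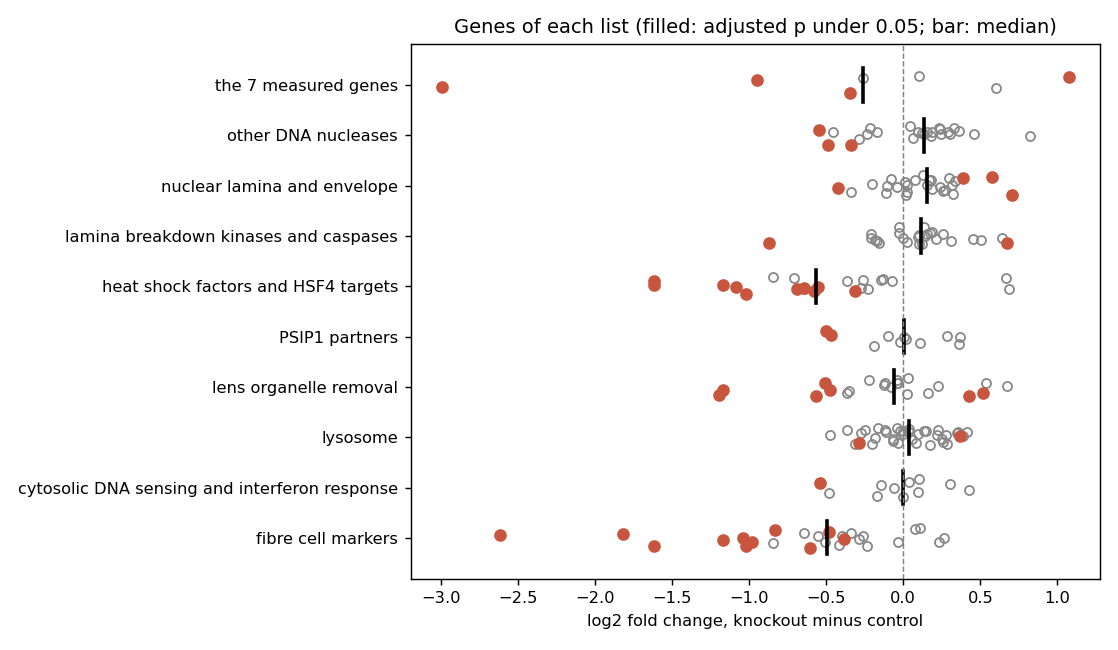
Log2 fold change (horizontal axis, knockout minus control) of the 7 measured genes (top row) and of every tested gene of 9 lists, with called genes filled in red and list medians as black bars. Dnase2b is the point farthest to the left, and the medians of the heat shock and fibre lists, -0.57 and -0.49, lie farthest below 0 among those of the 9 lists.

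Levels of different genes were compared per kilobase of exon, with length taken as the union of all annotated exons, which transcripts with retained introns enlarge. In the controls the order was Hsf4 (82.6 ± 0.17, SD, n = 3), Psip1 (47.7 ± 3.59), Lmnb1 (41.7 ± 2.01), Dnase2b (15.0 ± 3.97), Trex1 (7.26 ± 0.56), Lmna (1.51 ± 0.16) and Dnase1l1 (0.72 ± 0.30), all in CPM per kilobase. The ranges of Psip1 and Lmnb1 overlapped, and those of the other neighbours did not. In the knockouts Dnase2b was at 1.88 ± 0.11 (SD, n = 2), below Trex1 (3.75 ± 1.07) and Lmna (3.19 ± 1.42). It thus moved from rank 4 to rank 6 of 7, while Hsf4 remained at rank 1 (64.9 ± 4.27). In the knockouts Trex1 and Lmna overlapped, as did Lmnb1 and Psip1, and the other neighbours did not.

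**Figure D5:**
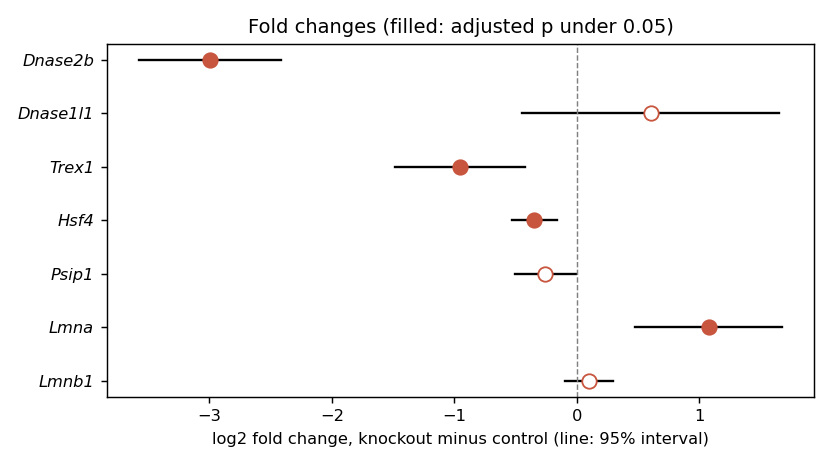
Log2 fold changes (horizontal axis, knockout minus control) of the 7 measured genes with their 95% intervals as lines. Filled points passed the edgeR test, and the interval of Dnase2b, -3.58 to -2.41, lies apart from those of the other 6 genes.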

How the data were processed

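The authors deposited a table of raw counts per gene symbol. Per the submitters' processing notes, the tools were TopHat2 2.0.13, Trim Galore 0.3.7, Cufflinks 2.2.1, DESeq2 and HTSeq 0.6.1 with the build mm10, with no role or order stated. The sources used here do not give the annotation, the strand setting or the rule for keeping symbols. Genes on opposite strands therefore cannot be told apart where exons overlap.

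Groups came from the sample titles. Counts were tested in R 4.3.3 with edgeR 4.0.16 (filterByExpr, minimum count 10; TMM; quasi-likelihood test, no covariate). The Benjamini-Hochberg adjustment covered all 12035 genes, and the threshold was 0.05. SE was the fold change over the square root of F, and the biological coefficient of variation was 14.1%. The code was tested on simulated data. Replicates differed by more than sampling noise (chi-square over its degrees of freedom at least 9.98). Each p-value reflects only how these pools varied, in part perhaps technically. Positions, exon lengths and GC content were read from GENCODE vM21, which is on GRCm38 (mm10), with GC known for 98.1% of tested genes. Alternatives used DESeq2 1.42.0, limma-voom (limma 3.58.1), other scaling and filters, each library left out, and the replicate number as a block. A further alternative used loess trends on the length and GC content of each gene's longest transcript as offsets.

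The genes and lists were chosen with earlier results of these data known. Besides the 8 genes, those named were the 8 profiles closest to Dnase2b and 3 closest to Hsf4, up to 3 called genes per list by p, and 12 fixed names, of which Dnase1l3 was not analysed here. Results for some genes that this rule names are not reported here. Birc7 as the largest fibre fall, Slc4a1 and the further genes of the heat shock list that fell were named after their values were seen.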

Additional observations from a re-analysis of the deposited data

How the results depend on the processing

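Of 572 values for 48 named genes under 12 alternatives, 456 kept their direction and side of the threshold, 106 lost the call, 2 gained it and 8 changed sign, all of the 8 in genes that had not passed. Those 8 were Lmnb1 (-0.030), Hsf2 (0.099) and Lmnb2 (-0.066) after removal of the length and GC trends, Hsf1 with library totals only (0.012) and without control replicate 1 (0.019), Hspb1 without knockout replicate 1 (-0.39), and Dffb without control replicate 2 (-0.21) or knockout replicate 2 (-0.18). With 1 library left out, Hsf1 ran from -0.13 to 0.019, Hspb1 from -0.39 to 1.3 and Dffb from -0.21 to 0.26. The cause was not tested. Over all genes, 1024 fell and 960 rose (48.4% higher). With library totals only the numbers were 637 and 1511 (70.3% higher, the median of all genes moving to 0.087), after trend removal 909 and 355 (28.1% higher), and with 1 library left out between 17 and 1291 fell and between 21 and 1426 rose. Of the 7 genes, 3 fell and 1 rose, and with 1 library left out between 1 and 4 fell and between 0 and 1 rose. With limma-voom or with the length and GC trends removed 0 rose.

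Deviations of same-numbered libraries from their group means correlated at -0.097 and -0.0018. The deviations of the 2 knockout libraries mirror each other, so these values are not independent and cannot show whether the libraries were paired. With the replicate block 522 genes fell and 473 rose over all genes, and of the 7 genes 1 fell (Dnase2b, log2 fold change -2.80) and 0 rose. The exact permutation test of Dnase2b against fibre genes cannot pass 0.05 with these libraries, and its difference ran from -2.29 to -2.00 with 1 library left out. For genes near 1 CPM, such as Dnase1l1, the counts limit what can be seen.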

Other observations

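A few genes outside the rule for named genes, chosen after their values were seen, lay close to the threshold. Dnase1l2, a relative of DNASE1 known from skin, was at 2.33 ± 0.046 CPM in the controls (SD, n = 3) and 4.12 ± 0.56 CPM in the knockouts (SD, n = 2), with no overlap and an edgeR adjusted p of 0.061. Kmt2a, a histone methyltransferase that LEDGF tethers to chromatin, was at 300.0 ± 35.6 and 385.5 ± 18.2 CPM (edgeR adjusted p = 0.057). Foxe3, a transcription factor of the lens epithelium, was at 177.9 ± 38.8 and 258.5 ± 14.8 CPM (edgeR adjusted p = 0.052). Bfsp2, the filament partner of Bfsp1, was at 559.6 ± 133.5 and 312.0 ± 138.8 CPM (edgeR adjusted p = 0.073).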
